A study of Mus musculus with 9 samples.

Results

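The dystrophin-associated protein complex was followed gene by gene in the cholinergic neurons of the adult mouse spinal cord. The genes were dystrophin (Dmd), its autosomal relative utrophin (Utrn), dystroglycan (Dag1), the delta-, zeta- and epsilon-sarcoglycans (Sgcd, Sgcz, Sgce), alpha-dystrobrevin (Dtna) and the gamma-syntrophins Sntg1 and Sntg2. These 9 genes were taken by name, and all 9 were present among the 21457 features of the deposited matrix. They were chosen by measured values, namely high Dmd and Sgcd in skeletal cluster S1 and low Sntg2 in interneurons of the lumbar and sacral cord. Levels over clusters and the regional values of interneurons are therefore given as description, without a test.

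Nuclei came from 12 mice aged 8 weeks of the strain Chat-IRES-Cre::Sun1-sfGFP, with the genotype Chat-iCre:+/wt and SUN-SfGFP:+/wt. Cre made from the choline acetyltransferase locus switches on a fluorescent nuclear envelope protein, and GFP+ nuclei were sorted and sequenced with 10x Chromium 3′ chemistry. Every group carried both alleles and none was treated, and the tag also stays on in neurons that made choline acetyltransferase only earlier in life. The mice were combined into 3 pools of 4, in which replicate 1 held 2 males and 2 females, replicate 2 held males and replicate 3 held females, and the tissue of a pool was dissected by region, labelled Cervical, Thoracic or Lumbar/Sacral. This gave 9 libraries, 3 per region, so that the 3 libraries of a replicate share mice and a p-value measures the spread between pools. The matrix held the 16042 nuclei labelled cholinergic of 34231 annotated nuclei, in 21 clusters: skeletal motor neurons (MNs) S1 to S3, visceral MNs V1 to V10 and cholinergic interneurons I1 to I8.

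In muscle, dystrophin ties the actin cytoskeleton to dystroglycan in the cell membrane, and dystroglycan holds laminins and other ligands outside the cell through its sugar chains. The sarcoglycans are small membrane proteins that strengthen this link, whereas dystrobrevins and syntrophins form its inner side and anchor signalling proteins and channels. In neurons dystrophin and dystroglycan are known from inhibitory synapses, utrophin is best known from the neuromuscular junction and from vessels and glia, epsilon-sarcoglycan is mutated in myoclonus-dystonia, and the gamma-syntrophins are found mostly in brain.

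The libraries held 747 to 2825 nuclei, with median totals of 4712 to 7175 corrected counts per nucleus in the Lumbar/Sacral libraries and of 7087 to 16127 in the 6 others. The barcode sequences of 66 nuclei (0.411%) occurred in more than 1 library. The annotated classes carried their markers: the sum of Tns1 and Prph was 336 to 632 corrected counts per 1000000 (CPM) in skeletal MNs and 6.71 to 20.99 in interneurons, the sum of Zeb2 and Fbn2 was 747 to 1458 in visceral MNs and at most 89.2 in skeletal MNs, and the sum of Pax2 and Mpped2 was 391 to 540 in interneurons and at most 22.2 in visceral MNs. Cluster S1 consisted of nuclei annotated as Type 3 (1526 of 1528), S2 of alpha (1283 of 1285) and S3 of gamma MNs (2241 of 2241). Hox genes went against the region label of both rostral male-pool libraries: Hoxa9 was at 5.31 to 21.7 CPM over the 3 classes in the library labelled Cervical replicate 2 and at 0.277 to 0.629 in the library labelled Thoracic replicate 2. The labels were kept, the regional tests of visceral MNs, of skeletal against visceral MNs and of Cervical against Thoracic libraries are also given without them, and a comparison of Lumbar/Sacral with the mean of the other regions has both on its rostral side under either label.

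The genes differ widely in length, so levels are also given per 100 kb. The relation of counts to gene length was not tested. In GRCm38 (GENCODE vM21), Dmd spans 2.26 Mb of the plus strand at X:82948870-85206141, Sgcz 1.14 Mb (8:37522298-38661508, minus), Sgcd 1.09 Mb (11:46896253-47988969, minus) and Sntg1 0.938 Mb (1:8361475-9299878, minus). The shorter ones are Utrn (10:12382188-12869365, minus), Dtna on the plus strand of chromosome 18, Sntg2 (12:30174482-30373375, minus), Sgce (6:4674350-4747207, minus) and Dag1, the shortest, at 0.0593 Mb (9:108204634-108263958, minus). Counts included introns, because reads had been counted on a pre-mRNA reference, and each value sums over all promoters and isoforms of a gene. Scaled to gene length, Sgcz was highest in skeletal MNs at 547 CPM per 100 kb and Sntg2 lowest at 22.3, with Dmd beside it at 23.7. In interneurons Sgcd led at 247 CPM per 100 kb, and in visceral MNs Dag1 at 145. On this scale Dag1, Sgce and Dtna lay between 106 and 145 CPM per 100 kb in each of the 3 classes.

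Over the 21 clusters the 9 genes fell into a group that varied strongly and a group that was nearly even. Between its highest and lowest cluster, Sntg2 differed by 5.57 on the log2 scale, Sgcd by 5.43, Sgcz by 4.67 and Utrn by 4.43, which placed each of these 4 at or above the 95.5 percentile of genes. The spans of Dmd (2.81), Sntg1 (2.16) and Dtna (2.08) lay in the 78.9 to 86.7 percentile range. Sgce (0.93) and Dag1 (0.72) differed less than the median gene, at 1.06.

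**Figure D1:**
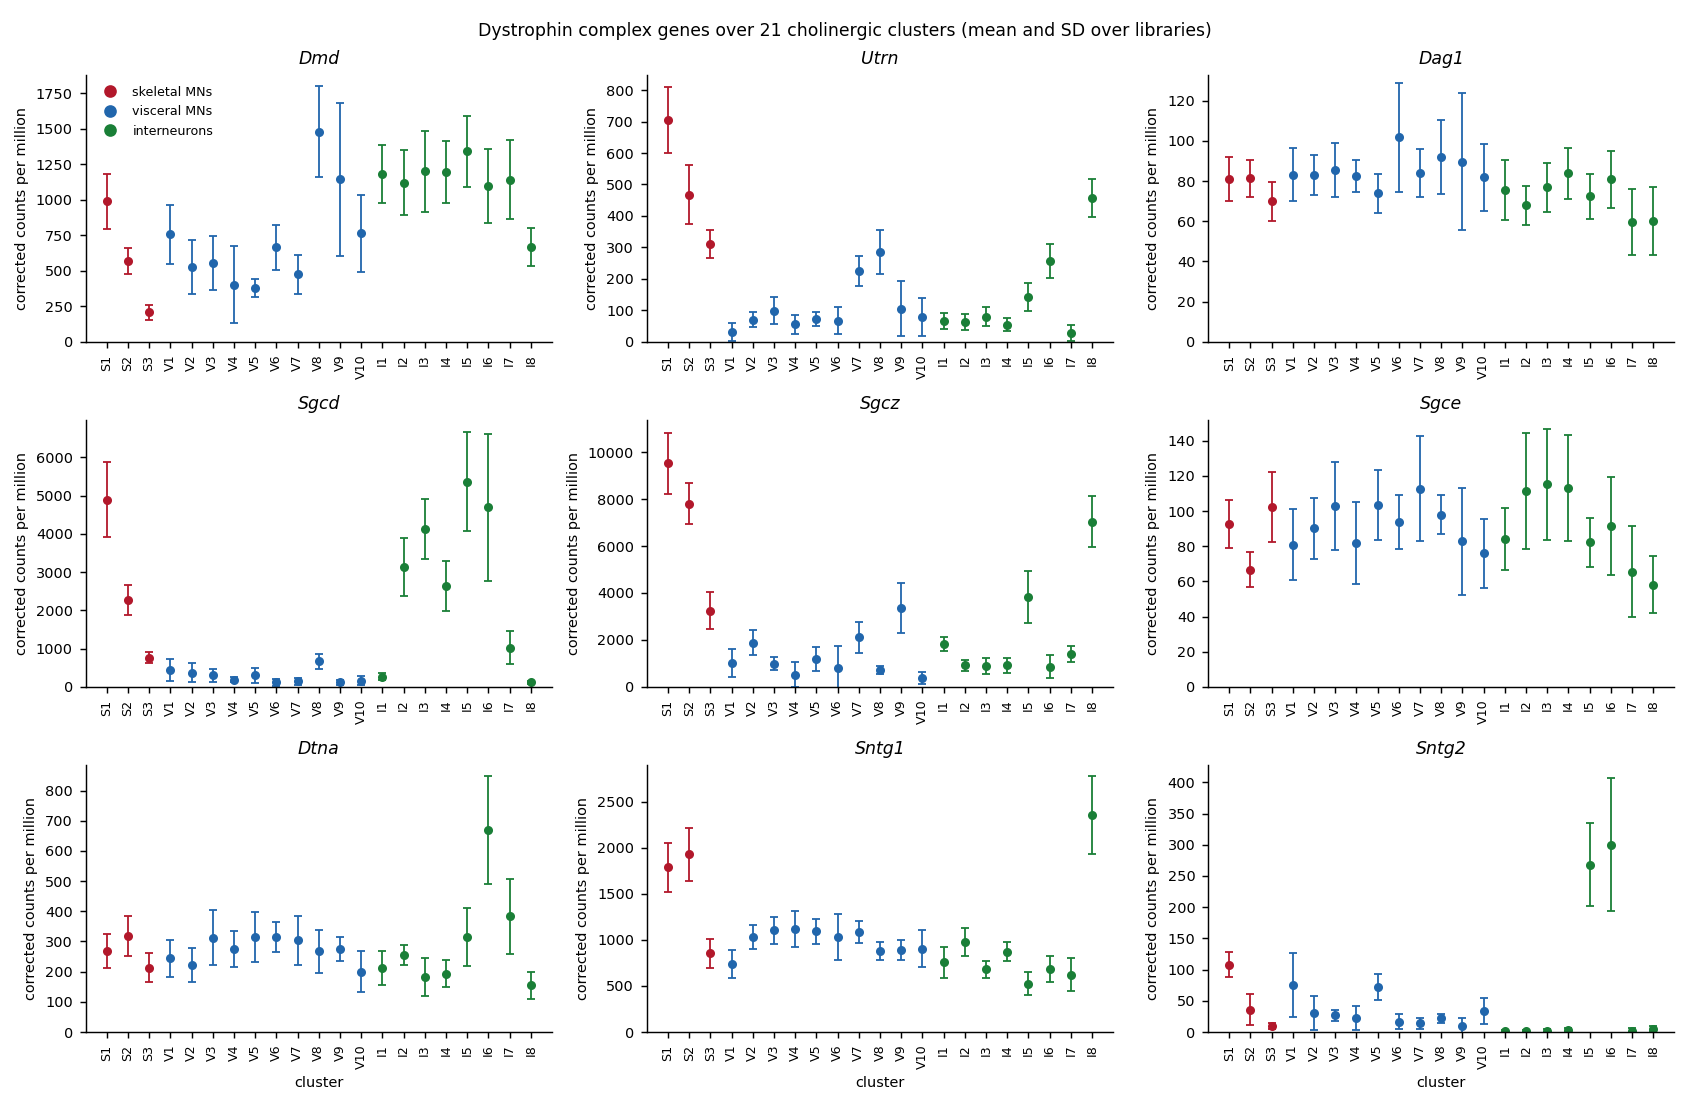
CPM of each of the 9 genes (y axis, linear, from 0) in the 21 annotated clusters (x axis), where points are means and bars SD over libraries (those holding 10 or more of its nuclei). Sgcd stands out in I5, S1, I6 and I3, Sgcz in S1, S2 and I8, Utrn in S1, S2 and I8, and Sntg2 in I6 and I5. Dag1 and Sgce stay within 58.0 to 115 CPM.

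Taken as a class, interneurons had higher dystrophin than motor neurons. Dmd was at 1164 ± 194 CPM (SD, n = 9) in interneurons, 660 ± 223 in visceral MNs and 536 ± 92.5 in skeletal MNs, and interneurons were above both MN classes in each of the 9 libraries. The highest cluster was V8, found almost wholly in Lumbar/Sacral libraries, at 1480 ± 318 CPM (n = 3). I1 to I7 followed with means of 1094 to 1343 CPM, together with V9 at 1144 ± 537 (n = 6). S1 came next at 988 ± 196 CPM, in rank 10, so Dmd was high in S1 among skeletal clusters but not over the 21. I8 was apart from the other interneuron clusters, at 669 ± 133 CPM (n = 8) in rank 13, below S1, V10 and V1. S3 was lowest at 206 ± 51.7 CPM. Of the 20 steps between neighbours in this order, 17 were smaller than their spread over libraries, and the 3 larger ones lay between V8 and I5, between S1 and V10 and between V5 and S3.

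Utrophin had another order. Utrn was at 463 ± 66.1 CPM (SD, n = 9) in skeletal MNs against 118 ± 25.0 in interneurons and 99.6 ± 42.7 in visceral MNs, and skeletal MNs were above both other classes in 9 of 9 libraries. S1 led at 705 ± 104 CPM, ahead of S2 at 468 ± 94.2, I8 at 458 ± 60.5 (n = 8) and S3 at 310 ± 43.8. S2 and I8 did not differ beyond their spread, whereas the steps from S1 to S2, from I8 to S3 and from V7 to I5 did. V8 (285 ± 70.1, n = 3), I6 (256 ± 54.0) and V7 (226 ± 48.3) were intermediate, and I7 was lowest at 27.9 ± 24.5 CPM (n = 6). Utrn had 1 corrected count or more in 98.0% of nuclei in S1 and 16.6% in V1, or 94.4% and 8.92% after each nucleus was thinned to 4600 corrected counts. Utrn is also made by vessel cells and glia. Summed endothelial markers (3 of 4 listed genes present) were at most 9.91 CPM in S1 and 5.39 in visceral MNs. Median sums of oligodendrocyte markers were 111 CPM in S1, 107 in S2, 39.4 in S3, 53.0 in visceral MNs and 43.0 in interneurons. For astrocyte markers they were 35.6, 150, 74.8, 134 and 52.1 CPM in the same order. The part of such transcripts in the Utrn values was not tested.

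Per gene length, the sarcoglycans Sgcd and Sgcz were the most abundant of the 9 genes in skeletal MNs and interneurons, and their patterns crossed. Sgcd, the delta subunit, was at 2697 ± 729 CPM (SD, n = 9) in interneurons and 2339 ± 370 in skeletal MNs, but at 316 ± 88.3 in visceral MNs, the lowest of the 3 classes in each library. I5 (5366 ± 1287), S1 (4894 ± 984), I6 (4689 ± 1921) and I3 (4127 ± 789) did not differ, each from the next, beyond their spread. The other interneuron clusters ran from 3125 ± 756 in I2 down to 263 ± 96.0 in I1 and 119 ± 45.1 in I8, the lowest of the 21. I5 exceeded I1 by 20.4 times, in 9 of 9 libraries.

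Sgcz, the zeta subunit, was at 6233 ± 951 CPM in skeletal MNs, 1860 ± 560 in interneurons and 1196 ± 243 in visceral MNs (SD, n = 9). S1 (9531 ± 1303), S2 (7794 ± 872) and I8 (7038 ± 1078, n = 8) led, and S2 did not differ from I8 beyond their spread. I8 and I6 showed opposite pairs of these subunits: I8 had high Sgcz and low Sgcd, and I6 had 866 ± 494 CPM of Sgcz beside its high Sgcd. Sgce, the epsilon subunit, stayed between 58.0 and 115 CPM in the 21 clusters, with 0 of 20 neighbouring steps beyond the spread in the direction of the order. Against the order, S3 minus V8 was -0.156 (SD 0.150, 3 shared libraries) and V8 minus V6 was -0.170 (SD 0.121, 2 shared libraries). Dag1, the membrane core of the complex, ran from 59.8 to 102 CPM.

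Alpha-dystrobrevin Dtna stood out in I6, at 669 ± 180 CPM (SD, n = 9). The next cluster, I7, had 383 ± 125 (n = 6) and the lowest, I8, had 155 ± 44.9 (n = 8). The I6 to I7 step was the 1 step of 20 beyond the spread in the direction of the order. Against the order, S1 minus V8 was -0.193 (SD 0.103, 3 shared libraries).

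The paired gamma-syntrophins differed from each other. Sntg1 was highest in I8 (2358 ± 425 CPM, n = 8), S2 (1928 ± 287) and S1 (1788 ± 266) and lowest in I5 (525 ± 124), and skeletal MNs averaged 1415 ± 270, above visceral MNs at 989 ± 118 and interneurons at 849 ± 140. Sntg2 was nearly confined, among interneurons, to I6 (300 ± 107 CPM) and I5 (268 ± 66.6), which did not differ beyond their spread. I1 to I4, I7 and I8 had means of 1.43 to 4.97 CPM. S1 (108 ± 20.4), V1 (75.2 ± 50.6) and V5 (72.2 ± 20.4, n = 7) carried intermediate levels. At least 1 corrected count of Sntg2 was found in 84.8% of I5 and 76.0% of I6 nuclei but in 1.15% of I1 nuclei, and thinning to 4600 gave 69.2%, 66.7% and 0.853%.

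Among skeletal MNs, S1 led S2 and S2 led S3 in most libraries for 5 of the 9 genes: Dmd, Utrn, Sgcd, Sgcz and Sntg2. The share of all genes with this order, or with ranges that do not overlap, was not computed. Dmd and Sgcd had been chosen as high in S1, so the order is not read as particular to the complex. For Dmd the 9 libraries had a low of 745, a median of 1051 and a high of 1287 CPM in S1, against 422, 557 and 727 in S2 and 148, 185 and 286 in S3. The 3 ranges did not overlap, and the ratio of S1 to S3 was 4.79.

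Sgcd showed the same order with a wider span. Its low, median and high were 3563, 5220 and 6544 CPM in S1, 1741, 2253 and 2905 in S2, and 537, 743 and 921 in S3. Again the ranges did not overlap, and S1 exceeded S3 by 6.42 times.

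Sntg2 was at 72.2, 117 and 131 CPM (low, median and high) in S1, 10.8, 31.4 and 93.0 in S2, and 2.40, 11.05 and 17.2 in S3. S1 was above S2 in 9 of 9 libraries, although the ranges of S1 and S2 overlapped, and the ratio of S1 to S3 was 10.6. Utrn followed the same order, S1 above S2 in 9 and S2 above S3 in 8 of 9 libraries, with a ratio of S1 to S3 of 2.27. For Sgcz, S2 was above S3 in 9 of 9 libraries and S1 above S2 in 7. Sntg1 set S3 apart, since S2 exceeded it 2.26 times in 9 of 9 libraries while S1 exceeded S2 in 3. Dtna was higher in S2, which exceeded S3 in 9 of 9 libraries and was exceeded by S1 in 1. Dag1 had S1 above S2 in 4 and S2 above S3 in 7 of 9 libraries. Sgce went the other way in S2, which was below S1 in 9 and below S3 in 8 of 9 libraries.

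**Figure D2:**
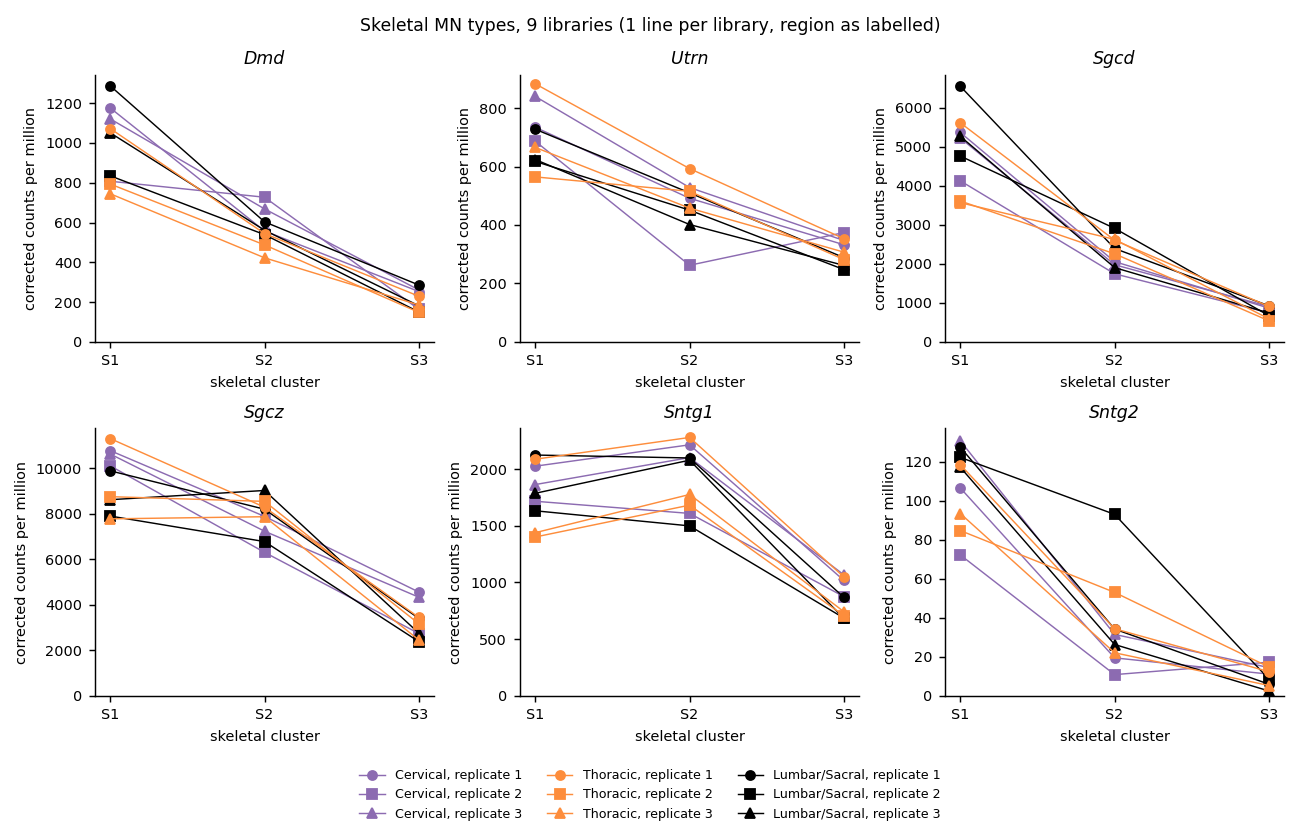
CPM (y axis, linear, from 0) in skeletal clusters S1, S2 and S3 (x axis), with 1 line per library, colours for the labelled region and symbols for the replicate. For Dmd and Sgcd each of the 9 lines descends from S1 to S2 to S3.

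The S2 values of Cervical replicate 2 rest on 71 nuclei that stood apart in their markers, with 107 CPM of summed Tns1 and Prph, the lowest of the 9 S2 sums, and 205 CPM of Zeb2 and Fbn2, the highest. Its Utrn value of 262 CPM was the lowest of the 9 and its Dmd value of 727 CPM the highest. Without this library the S2 values ran from 402 to 593 CPM for Utrn and from 422 to 668 CPM for Dmd, and the order of the skeletal clusters was the same for both genes.

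In interneurons, Sntg2 was lower in Lumbar/Sacral tissue. It was at 38.0, 29.9 and 30.5 CPM in the 3 Lumbar/Sacral libraries, and at 80.7 (low), 91.9 (median) and 98.7 (high) in the 6 rostral ones, a log2 difference of -1.36. The groups did not overlap. The rule that chose the genes used this difference, so nothing is read from the call share, which was 5 of 9805 genes (0.051%) in this contrast. Leaving out both rostral male-pool libraries left rostral values of 87.3 to 98.6 CPM.

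The clusters that carry Sntg2 were also less frequent there. I5 and I6 together made up 11.5, 15.1 and 16.8% of interneuron nuclei in the Lumbar/Sacral libraries and 23.1 to 31.2% in the others. These nuclei held 92.5 to 93.7% of the interneuron Sntg2 counts in Lumbar/Sacral and 97.2 to 99.2% in rostral libraries. Elsewhere among interneurons Sntg2 stayed between 0.911 and 3.56 CPM in all 9 libraries.

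Within I6 the level was lower as well. I6 nuclei had 199, 184 and 121 CPM of Sntg2 in Lumbar/Sacral libraries and 304 to 405 in rostral ones, without overlap, a log2 difference of -1.13. Within I5 the values were 345, 167 and 190 CPM against 228 to 330, and the groups overlapped. Of the other members in I6, Sgcd was at 2266 to 2718 against 3536 to 7474 CPM, Dmd at 757 to 888 against 1028 to 1472, and Sgcz at 1150 to 1737 against 200 to 1116. Utrn, Dag1, Sgce, Dtna and Sntg1 overlapped. The share of all genes without overlap in I6 was not computed, so these values are not read as particular to the complex. The sum of Chat and Slc5a7 in I6 was 370 to 501 CPM in Lumbar/Sacral and 685 to 923 in rostral libraries, and the sum of Zeb2 and Fbn2 was 23.4 to 42.6 against 1.69 to 22.5. The interneuron markers Pax2 and Mpped2 summed to 393 to 413 CPM in Lumbar/Sacral I6 and 515 to 568 in rostral I6, without overlap. The part of these marker differences in the Sntg2 values was not tested.

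**Figure D3:**
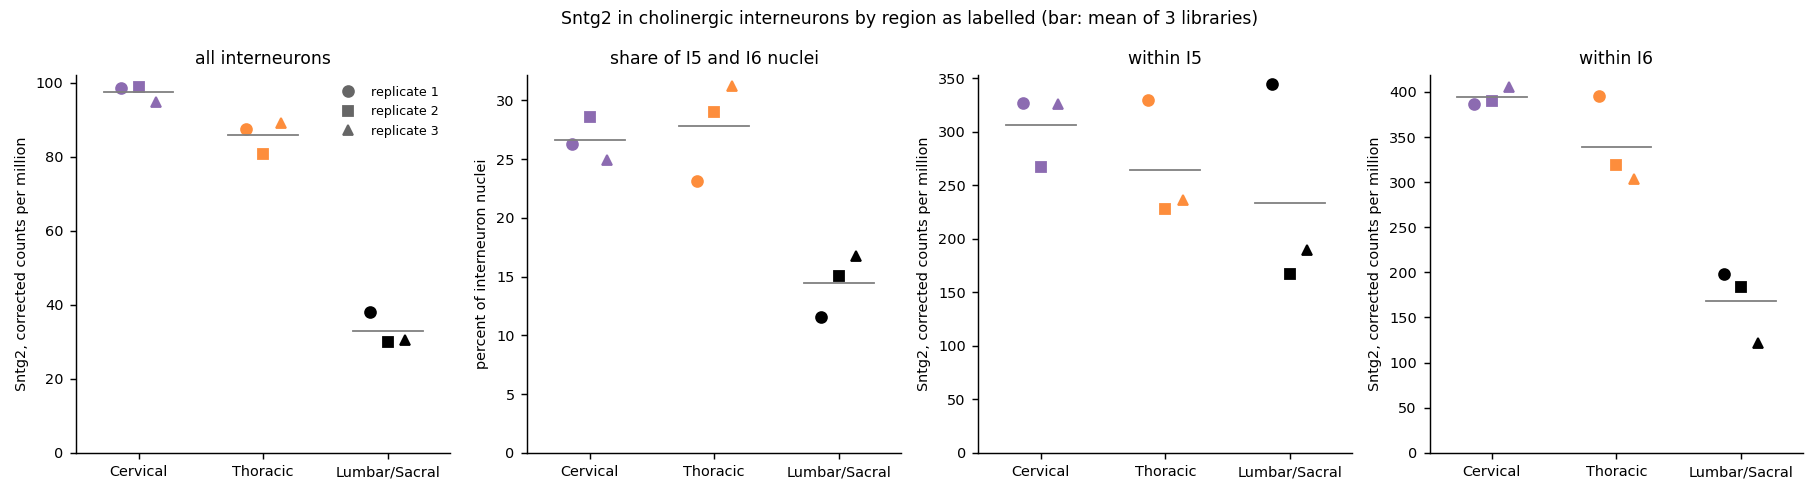
Sntg2 in interneurons by labelled region (x axis): CPM in all interneurons, the percent of interneuron nuclei in I5 and I6, and CPM within I5 and within I6 (y axes, linear, from 0), with 1 point per library and a line at the mean of 3. The Lumbar/Sacral points lie below the other 6 in each panel but that of I5.

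In the sum of interneurons Sgcd (log2 difference -0.66) and Dtna (-0.46) were also lower on average in Lumbar/Sacral tissue. Sgcd was at 2220, 1703 and 1867 CPM there and at 2111 to 3627 in rostral libraries, so the groups overlapped. The log2 difference of its means was negative in 6 of 6 interneuron clusters that had 3 Lumbar/Sacral and 6 rostral sums, at -1.14 in I6 and -0.10 to -0.36 in I1 to I5.

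Regional differences in motor neurons could be tested, and in the sum of visceral MNs utrophin was higher in Lumbar/Sacral libraries. This sum includes cluster V8, which rostral libraries nearly lack, so region and cluster make-up cannot be told apart in it. Utrn was at 188, 134 and 121 CPM in Lumbar/Sacral visceral MNs, and at 48.7 (low), 84.5 (median) and 94.4 (high) in the 6 rostral libraries, without overlap. The log2 difference was 0.93 (SE 0.20, limma, adjusted p = 0.0382). Utrn was the 1 member of 9 called, where 428 of 10031 genes (4.27%) passed, 233 higher (2.32%) and 195 lower (1.94%). The call depended on the libraries used: it held when Thoracic replicate 1 was left out (adjusted p = 0.00648), and the adjusted p was 0.0601 to 0.186 when any other library was left out and 0.105 without both rostral male-pool libraries. With the replicate as a block it was 0.0070.

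Dystrophin and Sntg2 were higher on average but missed the threshold in the main fit, which has no term for the replicate. Dmd was at 1082, 632 and 951 CPM in Lumbar/Sacral and 376 to 697 in rostral libraries, overlapping in 1 Lumbar/Sacral library, with a log2 difference of 0.69 (SE 0.22, limma, adjusted p = 0.151). With the replicate as a block, Dmd passed the test (adjusted p = 0.0269). Sntg2 was at 53.3, 45.7 and 43.3 CPM against 17.8 to 42.3, without overlap, with a log2 difference of 0.74 (SE 0.20, adjusted p = 0.0877). Log2 differences of the other 6 members lay between -0.30 and 0.11, with adjusted p of 0.625 to 0.968.

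The visceral sums of Lumbar/Sacral libraries contain a cluster that the others nearly lack. V8 made up 33.4, 25.8 and 32.4% of visceral nuclei in the Lumbar/Sacral libraries and at most 0.279%, or 3 nuclei, in any rostral one. V8 had 357, 281 and 217 CPM of Utrn and 1764, 1136 and 1540 CPM of Dmd, and in the same 3 libraries it exceeded V2, another large visceral cluster, 3.49 times for Utrn, 1.98 times for Dmd and 3.42 times for Sgcd. V7 was nearer to it in Utrn, at 284, 223 and 197 CPM in these libraries, and overlapped with V8. The sum of Zeb2 and Fbn2 in V8 was 986 to 1479 CPM. The paper describes V8 as lacking detectable Zeb2 and as expressing Fbn2, so the sum does not stand for both markers. V8 had at most 5.16 CPM of 5 summed astrocyte genes, Slc4a4 among them.

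When V8 nuclei were taken out of the visceral sum, its utrophin and dystrophin differences were smaller, whereas within some single clusters the groups did not overlap. Utrn was then at 104, 83.8 and 75.5 CPM in Lumbar/Sacral and 48.7 to 94.4 in rostral libraries, a log2 difference of 0.22 (adjusted p = 0.890, or 0.472 with the replicate as a block). Dmd had a log2 difference of 0.19 (adjusted p = 0.935, or 0.544 with the block). Both ranges overlapped. The remaining sum still mixed clusters unequally, since V9 held 1, 1 and 2 nuclei in the Lumbar/Sacral libraries and 17 to 63 in the rostral ones.

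Within clusters, given as description, mean Dmd was higher in Lumbar/Sacral tissue in 5 of 5 visceral clusters with sums in all 9 libraries, by 0.08 to 1.65 on the log2 scale. The groups did not overlap within V2 (559 to 847 against 347 to 515 CPM) and V4 (580 to 920 against 166 to 343 CPM). For Utrn they did not overlap within V4 (82.5 to 91.5 against 17.2 to 68.4 CPM, a log2 difference of 1.24). They overlapped within V1, V2, V7 and V3, where the log2 differences of Utrn were 1.37, 0.37, 0.10 and -0.64. Sgcz did not overlap within V4 (870 to 1496 against 71.5 to 426 CPM, a log2 difference of 2.82). It overlapped within V1, V2, V7 and V3, at -0.49, -0.27, 0.16 and 0.35. The share of all genes without overlap within these clusters was not computed.

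Sntg2 without V8 was at 68.2, 56.3 and 50.6 CPM in Lumbar/Sacral visceral MNs against 17.8 to 42.3, a rise of 1.01 on the log2 scale (limma, adjusted p = 0.0494, or 0.0426 with the replicate as a block). With the clusters other than V8 weighted equally it was 0.91 and missed the threshold (adjusted p = 0.114). It was higher without overlap within V1 (84.9 to 166 against 19.0 to 76.0 CPM), V2 (64.4 to 68.0 against 7.43 to 17.7) and V4 (32.0 to 56.7 against 5.56 to 14.1), but overlapped within V3 and V7. In interneurons the same gene was lower in Lumbar/Sacral tissue, and the difference between these classes was not tested because the interneuron contrast had served to choose it.

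Sgcd without V8 was at 201, 94.3 and 144 CPM in Lumbar/Sacral visceral MNs and 183 to 423 in rostral ones, a log2 difference of -1.12 that missed the threshold in the plain fit (adjusted p = 0.0822) and passed it with the replicate as a block (0.0036). Its log2 difference of means was negative in 5 of 5 visceral clusters with sums in all 9 libraries, from -0.51 in V4 to -1.68 in V3. Removing V8 was decided after its levels had been seen. Visceral MNs of the Lumbar/Sacral libraries also had less of the summed astrocyte genes (42.0 to 64.7 against 122 to 249 CPM), a sum made up almost wholly of the bicarbonate transporter gene Slc4a4, and of Gpr149 and Rreb1 (119 to 171 against 285 to 457 CPM), and their part in these results was not tested. Slc4a4 alone was at 40.7 to 248 CPM over the 9 visceral sums, while the defining astrocyte genes Aqp4, Gfap, Slc1a3 and Gja1 had means of 0.169, 0.563, 0.705 and 2.14 CPM.

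**Figure D4:**
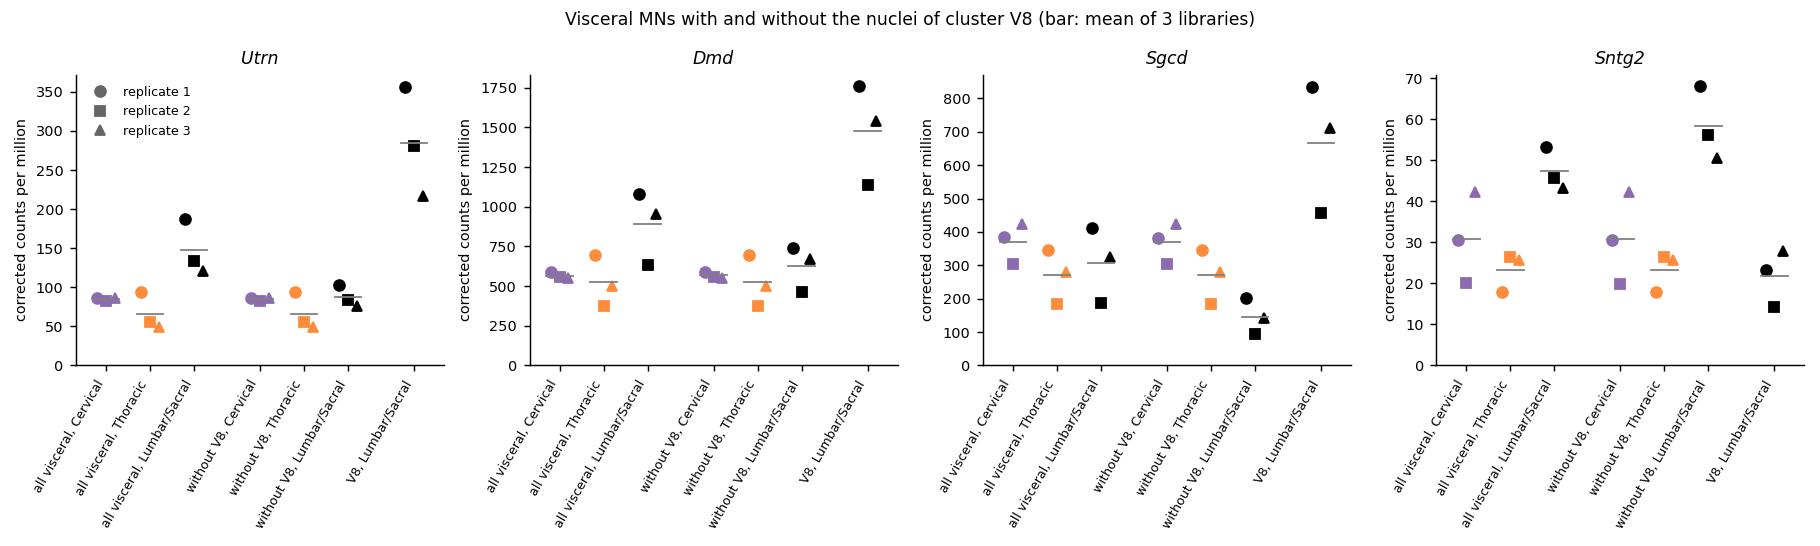
CPM (y axis, linear, from 0) of Utrn, Dmd, Sgcd and Sntg2 in the sum of visceral MNs, in the sum without V8 and in V8 (x axis, by labelled region), with 1 point per library and a line at the mean of 3. Lumbar/Sacral Utrn points lie above the rostral ones in the full sum and among them without V8, whereas those of Sntg2 lie above in both.

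In skeletal MNs none of the 9 members was called in S1, S2 or S3, taken apart so that their proportions do not enter. On simulated data these fits called 51% of genes moved by a log2 change of 1 in S1, 24% in S2 and 53% in S3. A missing call is therefore not read as equal levels. Of all genes, 0 of 10025 passed in S1 (0%), 0 of 10387 in S2 (0%) and 7 of 9841 in S3 (0.0711%), while 439, 245 and 579 had an unadjusted p under 0.05 in limma, the one tool run. In S1 the log2 differences of the members lay between -0.31 (Dtna, SE 0.16) and 0.29 (Sntg2, SE 0.18), all with an adjusted p of 0.989. In S2 they lay between -0.42 (Dtna, SE 0.18) and 0.68 (Sntg2, SE 0.42), and in S3 between -0.73 (Sntg2, SE 0.29) and 0.10 (Dag1, SE 0.15). Utrn in S1 was at 728, 618 and 624 CPM in Lumbar/Sacral and 565 to 883 in rostral libraries, with overlap. These comparisons take their sums from the same 9 libraries as the visceral one.

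A test on the difference between skeletal and visceral MNs within each library asked whether the regional difference was unequal in these class sums. It called 798 of 10990 genes (7.26%), with 384 lower (3.49%) and 414 higher (3.77%) in skeletal relative to visceral MNs. Members called were Utrn at -1.12 (SE 0.14, limma, adjusted p = 0.000303), Dmd at -0.68 (SE 0.12, adjusted p = 0.00427) and Sntg2 at -0.55 (SE 0.15, adjusted p = 0.0449), all lower. Utrn in the skeletal sum was at 470, 389 and 407 CPM in Lumbar/Sacral and 402 to 575 in rostral libraries, so the 2 classes differed in the sign of their mean difference. The skeletal sum mixed S1, S2 and S3 unequally. S2 held 58 of 602 skeletal nuclei in Lumbar/Sacral replicate 2 and 71 of 166 in Cervical replicate 2. The part of these shares in the skeletal values was not tested.

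The calls of Utrn and Dmd held in each fit that left out 1 library, and that of Sntg2 held in 1 of 9, without Thoracic replicate 3 (adjusted p = 0.0297, against 0.0560 to 0.195 in the others). Without both rostral male-pool libraries, the adjusted p was 0.000291 for Utrn, 0.000989 for Dmd and 0.0595 for Sntg2. Without V8, Dmd was at -0.18 (adjusted p = 0.570) and Utrn at -0.41 (0.138, or 0.0469 with the replicate as a block). Sntg2 was then at -0.82 (0.00878, or 0.0152 with the block) and Sgcd at 1.29 (0.000533, or 0.000194 with the block).

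**Figure D5:**
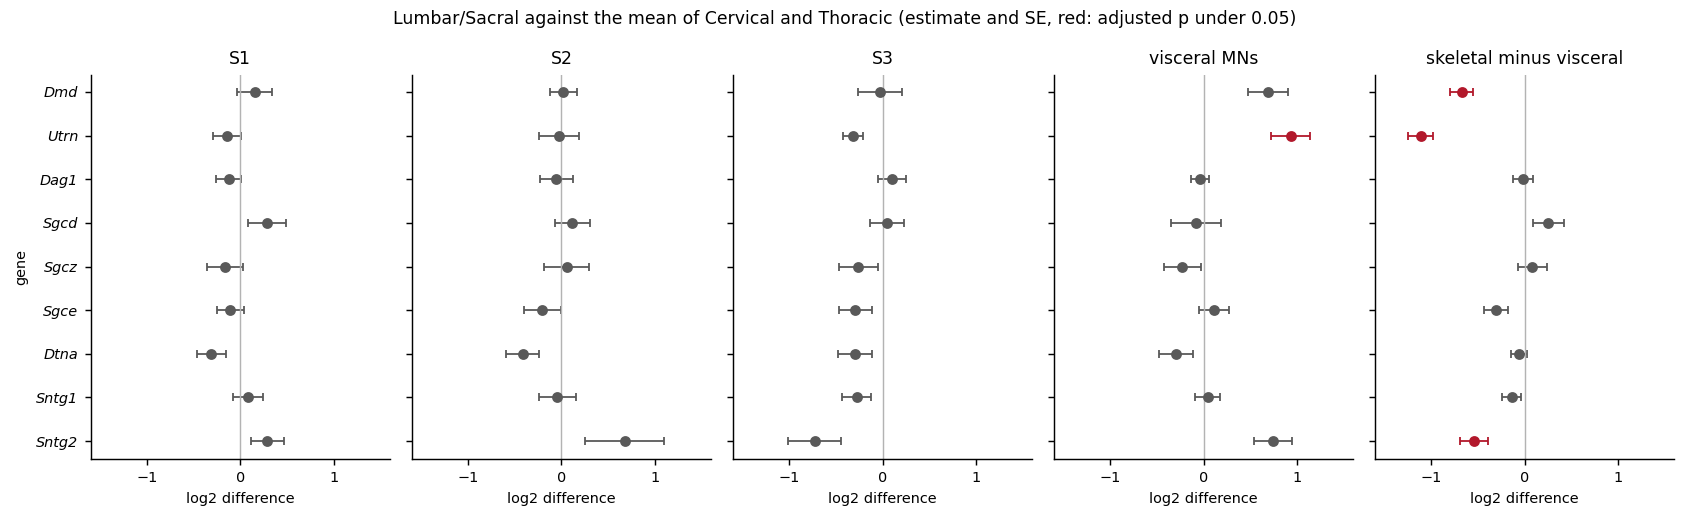
Log2 differences of the 9 members (x axis) between Lumbar/Sacral and the mean of Cervical and Thoracic libraries in S1, S2, S3 and visceral MNs, and the skeletal minus visceral difference of that value (last panel), where points are estimates, bars are SE and red marks an adjusted p under 0.05. Red points are Utrn in visceral MNs and Dmd, Utrn and Sntg2 in the last panel.

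Cervical and Thoracic libraries were compared under their labels, although Hox genes went against 2 of these. Class sums were used, in which the shares of clusters were not held equal. In limma 0 of 9805 genes passed in interneurons, 0 of 9999 in skeletal MNs and 0 of 10031 in visceral MNs (0% each), 189, 607 and 160 having an unadjusted p under 0.05, and no member passed. Member log2 differences lay between -0.19 (Sntg2, skeletal MNs) and 0.48 (Sgcd, visceral MNs), and no member was called without both male-pool libraries.

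Dmd lies on the X chromosome, so the male pool was set against the female pool with a term for region. Since each sex was 1 pool of mice, sex and pool cannot be told apart. Shares of clusters were not held equal in these class sums either. Dmd had a log2 difference, male minus female, of -0.33 (SE 0.15) in visceral MNs, -0.19 (SE 0.13) in skeletal MNs and -0.17 (SE 0.12) in interneurons, with adjusted p of 0.399, 0.555 and 0.544. None of the 9 members was called, where 5 of 9744 genes (0.0513%), 7 of 9660 (0.0725%) and 5 of 9594 (0.0521%) were. The member with the smallest p was Sgcd in visceral MNs, at 303, 183 and 186 CPM in the male and 423, 282 and 326 in the female libraries (Cervical, Thoracic and Lumbar/Sacral, as labelled). The first 2 male values are those of both libraries whose Hox genes went against their labels, so the pairing by region rests on these labels, and no fit was possible without them. Its log2 difference was -0.63 (SE 0.11, limma, adjusted p = 0.297), and it passed when Cervical replicate 2 (adjusted p = 0.0293) or Cervical replicate 3 (0.0307) was left out.

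Other genes of the pathway were taken from lists by role. Of 9 other subunits 6 reached 10 CPM in a class, among them beta-dystrobrevin Dtnb (311 ± 27.9 CPM in interneurons, 233 ± 30.7 in skeletal and 232 ± 25.3 in visceral MNs) and the syntrophin Sntb2. Of 20 genes for the sugar chains of dystroglycan, 17 were in the matrix and 11 reached 10 CPM, among them Ispd. Of 12 ligands 10 did, among them the neurexin Nrxn3 (7046 CPM in interneurons, 2614 in visceral and 1585 in skeletal MNs) and Slit2, a guidance factor. Of 11 partners 8 did, led by the ankyrins Ank2 and Ank3 and the kinase Mast2, and so did 5 of 5 genes of inhibitory synapses, among them the scaffold genes Magi2 and Gphn (gephyrin).

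In the regional test of visceral MNs, these lists had 0 of 6 subunits, 0 of 12 sugar chain genes, 1 of 8 ligands, 0 of 8 partners and 0 of 5 inhibitory synapse genes called, with medians of -0.05, 0.09, -0.05, -0.19 and 0.12 beside 0.06 over all genes. The ligand was the laminin chain Lama3, which fell by 1.61 on the log2 scale (SE 0.17, limma, adjusted p = 0.00112). The median of the 9 members was 0.04. In S1, S2 and S3 no listed gene was called.

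In the test of skeletal against visceral MNs, 1 of 6 subunits was called lower (Dtnb, -0.45, adjusted p = 0.0201). Of 10 ligands 2 were higher, Lama3 at 2.20 (adjusted p = 1.12e-05) and pikachurin Egflam, a dystroglycan ligand of retinal synapses, at 0.80 (0.0241). Of 8 partners 1 was higher, syncoilin Sync, an intermediate filament protein that binds dystrobrevin, at 0.92 (0.00229), and 1 lower, Ank3, at -0.36 (0.0499). Medians were 0.08 for subunits, 0.01 for sugar chain genes, 0.07 for ligands, 0.16 for partners and -0.19 for inhibitory synapse genes, beside -0.14 for the members and 0.06 over all genes. The listed genes were not fitted again without V8.

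Likeness of pattern was described by Pearson's r of mean log2 values over the 21 clusters, among 10842 genes. The clusters share libraries and depth, so no p is given. Among the members r ran from -0.36 for Dmd with Sntg1 to 0.65 for Sgcz with Utrn, so the 9 genes did not move as a block. The genes most like Sgcd were Zfp30 (0.90), Nfyc (0.87) and Tfrc (0.85), those most like Utrn were Bcl6 (0.86), Kank1 (0.84) and Nova2 (0.83), and those most like Dmd were Trim66 (0.70), Sfxn2 (0.69) and 2900055J20Rik (0.67). Sntg2 was followed by Phyh (0.80), C1ql3 (0.80) and Hmga2 (0.78), Sntg1 by Ssbp2 (0.85), Slc41a3 (0.85) and Sned1 (0.83), and Dtna by Fam69a (0.80), Map3k3 (0.76) and Prr14l (0.76). Sgcz was followed by Gm40493 (0.91), whose span of 8:38659763-38671066 on the plus strand overlaps the start of Sgcz on the other strand, then by Tex261 (0.81) and Acad9 (0.80). Whether these overlapping features shared reads was not tested. The nearly even Dag1 was most like Jund (0.86), Naa15 (0.81) and Gm20708 (0.80), and Sgce most like Dyrk1a (0.84), Tpr (0.84) and Zranb1 (0.83).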

How the data were processed

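Nuclei of 9 libraries were analysed. Per the labels and the study's methods, the authors used Cell Ranger 3.1.0 with an mm10 (GRCm38) reference that includes introns, and normalized each barcoded region with SCTransform in Seurat. DESeq2 is named in the submitters' processing notes and was not used here. The deposited matrix holds corrected counts, which were handled as a model score and not as molecules counted: they are whole numbers, but the totals within a library vary by an SD of only 5.85 to 10.7% of their mean. Clusters, classes and regions are the authors' annotation, and doublets were not called again. Corrected counts were summed per library and cluster or class with at least 10 nuclei and scaled to 1000000 (CPM). Such sums keep no depth, so values of shallow Lumbar/Sacral libraries are less precise. Median totals of 4712 to 7175 in Lumbar/Sacral libraries lie almost wholly below the 7087 to 16127 of the others. Region and depth can therefore hardly be told apart, and the part of depth in the Lumbar/Sacral differences was not tested.

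Tests used limma 3.58.1 with a trend in R 4.3.3 on log2(CPM + 5), for genes that reached 10 CPM in 3 sums or more, with Benjamini-Hochberg adjustment over all genes tested and a call at an adjusted p under 0.05. Fold changes on this scale understate changes of low genes. A plain difference of log2 values beside a fitted one is on the same scale. The models had terms for region, and for the sex comparison region and sex. Main regional fits within a class or cluster had no term for the replicate. The mice shared by libraries therefore enter these fits only in the alternative with the replicate block. Neighbouring clusters were said to differ beyond their spread where the mean paired log2 difference over shared libraries, higher minus lower in the order, exceeded its SD. A difference against the order of the means was not counted. The script was tested on simulated data. Descriptions used Python 3.11.15 with pandas 2.3.3.

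The members, the lists and the comparisons were chosen with earlier results of these data known. The genes named are the 9 members, listed genes that were called or among the 3 highest of their list, and the 3 genes most like each member over the clusters. Some listed genes that this rule names are not reported here. Libraries with the same replicate number come from the same mice. Their deviations from the region means correlated with r of 0.67 to 0.92 for replicate 1, 0.34 to 0.75 for replicate 2 and -0.22 to 0.85 for replicate 3, so the pairing rests on the design. Alternatives were the pseudocount, scaling by median of ratios, the filter, 30 nuclei per sum, equal weight per nucleus or cluster, the replicate block and leaving out each library. Chosen after seeing the data were cervical and thoracic libraries as 1 group, leaving out both rostral male-pool libraries, and leaving out V8.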

Additional observations from a re-analysis of the deposited data

Results flagged for a closer look

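The difference between Lumbar/Sacral and rostral libraries was unequal in the sums of skeletal and of visceral MNs for 3 of the 9 genes, by a test of that inequality itself. This test called 798 of 10990 genes (7.26%). The skeletal minus visceral value was -0.68 on the log2 scale for Dmd, -1.12 for Utrn and -0.55 for Sntg2. For Dmd and Utrn it was smaller without V8 nuclei (-0.18 and -0.41) and not called in the plain fit (limma, adjusted p = 0.570 and 0.138). For Sntg2 it was larger without V8 (-0.82). Over 20 alternatives the call held in 18 for Dmd, 19 for Utrn and 8 for Sntg2.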

How the results depend on the processing

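No member was called in S1, S2, S3 or between Cervical and Thoracic libraries under any alternative. Genes called in S1 (0) came to 8 with a pseudocount of 20, 9 without a filter, 5 with 10 CPM in every sum, 23 with the replicate block, 7 with rostral libraries as 1 group and 2 without both rostral male-pool libraries. In S2 (0) they came to 1 with the replicate block and 1 with rostral libraries as 1 group. In S3 (7) they came to 2 with a pseudocount of 1, 3 with median of ratios, 17 without a filter, 4 with 10 CPM in every sum, 12 with the replicate block and 3 without both male-pool libraries, and scaling by median of ratios shifted all genes by -0.11 in S2 and -0.14 in S3. Cervical against Thoracic skeletal MNs had 1 gene called, in place of 0, without both male-pool libraries, and a shift by scaling of 0.13. In visceral MNs, genes called (428) came to 737 with the replicate block, 116 with clusters weighted equally without V8 and 173 without V8. Members called there (1) came to 2 with the replicate block (Dmd and Utrn), 2 without V8 with the replicate block (Sgcd and Sntg2), and 0 with median of ratios, without a filter, with equal cluster weights or without both male-pool libraries. Genes called between skeletal and visceral MNs (798) came to 327 without V8, 400 without V8 with the replicate block and 872 without both male-pool libraries. The replicate block changed no other call of a member, beside those given in the report. Sex comparisons called 0 genes in each class with 10 CPM in every sum, and 8 in interneurons with median of ratios, which moved the share of higher calls from 80 to 50% there and from 80 to 57.1% in visceral MNs. The filter of 10 CPM in every sum leaves out Xist, at most 2.08 CPM in male-pool class sums. It also leaves out Uty, Ddx3y and Kdm5d, at most 1.58 CPM in female-pool ones. Sex comparisons could not be fitted without both male-pool libraries, and no block was possible because pool and sex coincide. The cause of these changes was not tested.

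Leaving out each library in turn gave 0 to 9 genes in S1 (9 without Cervical replicate 2), 0 to 4 in S3 (0 without any single Lumbar/Sacral library), 160 to 471 in visceral MNs (160 without Lumbar/Sacral replicate 1) and 405 to 853 between skeletal and visceral MNs (405 without Lumbar/Sacral replicate 1). Members called were 0 to 1 in visceral MNs, where Utrn ran from 0.75 to 1.06, and 2 to 3 between classes, where Dmd ran from -0.73 to -0.59, Utrn from -1.22 to -1.01 and Sntg2 from -0.64 to -0.45. Sex gave 0 to 1329 genes in skeletal MNs, 0 to 425 in visceral MNs and 0 to 1331 in interneurons, the highest each without Cervical replicate 3, with 1314, 362 and 1251 without Cervical replicate 2, and 0 to 1 member in visceral MNs.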
